A study of Sus scrofa with 8 samples.

Results

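The genes described here encode the proteins that take up fatty acids, carry them into mitochondria and oxidise them, together with the enzymes that oxidise ketone bodies, in the right ventricle of pigs with and without pulmonary artery banding. A list of 35 genes was matched by symbol, or else by the name of a one-to-one human orthologue, to the gene models counted by the authors. Of the 35, 33 matched 1 of the 31908 models (32 by symbol and ACACB by its human name), and ECI1 and ACOT2 matched none. Of the 33, 31 had enough counts to be tested, and ETFB and UCP3 did not. Bulk RNA of the right ventricular free wall was sequenced from 8 Yorkshire cross pigs, with 1 library per animal. In the 4 banded pigs, castrated males operated on at 4.5 ± 0.6 weeks and 6.4 ± 1.3 kg, a band on the main pulmonary artery was drawn tight to bring the peak pressure of the right ventricle to about 30 to 40 mmHg, which loads that ventricle with pressure. The 4 controls were animals of comparable age and weight kept for 8 weeks. The labels give their treatment as none and do not state their sex, and they name no sham operation. Banding thus cannot be told apart from sex, the operation itself or any difference in batch or litter. The labels do not say how long after banding the tissue was taken.

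The libraries held 31033679 to 34183338 counted read pairs, and transcripts of the mitochondrial genome took 35.3% to 43.9% of them in controls and 30.5% to 39.7% in banded animals. Levels are given below as CPM (read pairs per 1000000 counted), normalised by the trimmed mean of M-values (TMM). The summed level of the 8 matched cardiomyocyte markers out of 10 listed was 26338 to 35065 CPM across controls, against 35401 to 46784 CPM after banding, with 2 of the 8 called higher (MYL2 and MYOZ2) and 0 lower. MYL2 held much of the sum, at 7651 to 10891 CPM in controls and 14317 to 20446 CPM in banded animals, while 4 of the 8 had negative log2 fold changes (TNNI3 -1.25, at most 20.6 CPM in any library, RYR2 -0.74, MYBPC3 -0.33 and MYL3 -0.19). The ranges of the sum did not overlap, and its part in the results below was not tested. Adipocyte markers, which matter because fat cells also express CD36 and ACSL1, summed to 12.2 to 32.2 CPM in controls (4 matched of 5). They summed to 3.71 to 15.6 CPM in banded 2, 3 and 4 and to 292 CPM in banded 1. Leptin, a defining adipocyte gene, was at 0 to 0.0281 CPM in controls and reached 2.65 CPM after banding. Skeletal muscle markers summed to at most 1.49 CPM in any library (4 matched of 8), and ATP2A1 was at 0 in all controls. Of these markers 1, ACTN3, was called lower (log2 fold change -2.63, adjusted p = 0.0287 in edgeR). It was at 0.609 to 0.991 CPM in controls and 0.0348 to 0.189 CPM in banded animals. Markers of endothelial cells, which also carry CD36, summed to 762 to 866 CPM across controls, against 661 to 841 CPM after banding (7 matched of 8, with EMCN called lower). Erythroid markers summed to 74.5 to 321 CPM across controls, against 129 to 1781 CPM after banding, highest in banded 4. Fibroblast (8474 to 11710 and 6876 to 12305 CPM), smooth muscle (686 to 980 and 578 to 1853 CPM), macrophage (152 to 242 and 158 to 435 CPM) and hepatocyte markers (56.9 to 91.8 and 46.7 to 77.5 CPM, SERPINA1 at 0) overlapped between controls and banded animals in their sums. Of the fibroblast markers 1 was called higher, PI16, and 1 lower, PDGFRA. PI16 had 32.2 to 54.5 CPM in controls and 165 to 258 CPM in banded animals (adjusted p = 0.000315), and the log2 fold change of PDGFRA was -0.49 (adjusted p = 0.048).

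The heart takes most of its fuel from long-chain fatty acids. They enter the cell with the help of CD36 and the fatty acid transport proteins, are bound by FABP3, and are activated to acyl-CoA by ACSL1. The carnitine shuttle carries the acyl group into the mitochondrion, where the beta-oxidation spiral shortens it by repeated dehydrogenation, hydration, a further dehydrogenation and thiolysis, and passes electrons through the electron transfer flavoprotein to the respiratory chain. Malonyl-CoA, made in heart by ACACB and removed by MLYCD, inhibits the first carnitine palmitoyltransferase. Ketone bodies enter energy metabolism through BDH1, OXCT1 and ACAT1.

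Most genes of fatty acid and ketone oxidation were not called different in banded pigs, and those that were called were all lower. Of the 31 tested, 3 were called lower at an adjusted p under 0.05 (edgeR quasi-likelihood test, Benjamini-Hochberg over all genes) and 0 higher. They were ACAA2, a thiolase of the mitochondrial spiral, ECI2, an isomerase for unsaturated acyl chains, and ACACB, which makes malonyl-CoA. Over all 13697 tested genes, 6.97% were called, 3.50% lower and 3.47% higher, against 9.68% and 0% of the 31. At an unadjusted p under 0.05, 9 of the 31 were lower and 0 higher (29.0%, against 23.8% of all tested genes in either direction and 11.7% lower). For 8 of the 31 the 4 values of banded animals lay wholly on 1 side of the 4 of controls (7 lower and 1 higher, 25.8%), against 15.9% of all tested genes (8.20% lower and 7.66% higher). The median log2 fold change of the 31 was -0.10, against 0.02 over all tested genes, with 19 of 31 below 0. In bulk tissue, fewer cells of a type and less RNA per cell cannot be told apart. The count of 3 fell to 0 without control 1 to 1 without control 2, control 3 or banded 2, and to 2 without control 4, banded 3 or banded 4, and it was 5 with DESeq2 or with library size alone. No gene of the 31 passed a test against a 1.5-fold change. Scaling by library size alone shifted the all-gene median by -0.10 on the log2 scale, and called 303 genes higher and 508 lower, against 475 and 479 with TMM.

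**Figure D1:**
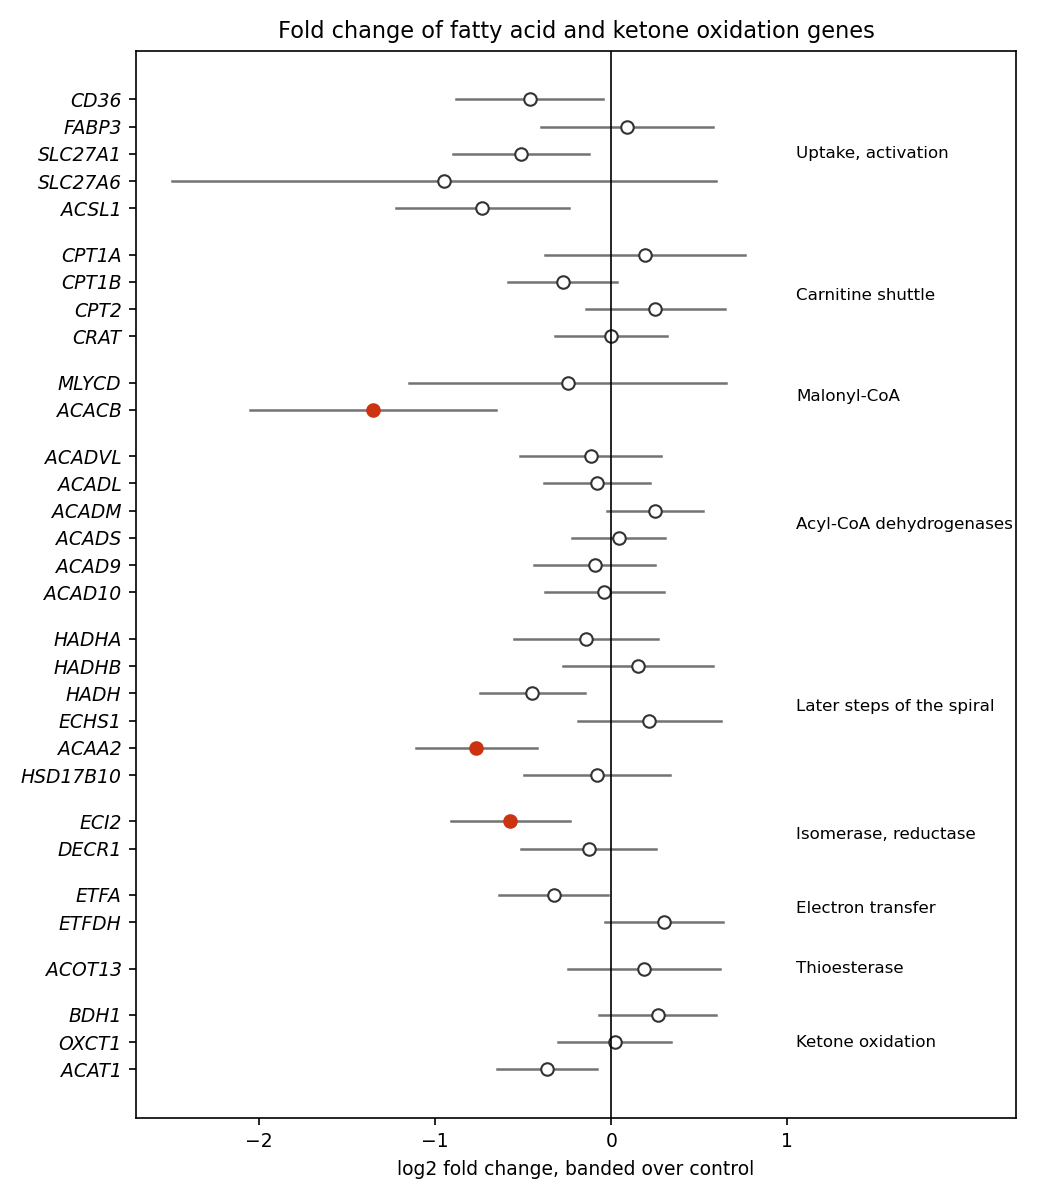
Log2 fold change of banded over control (x axis) for the 31 tested genes, grouped by step of the pathway, with 95% intervals from the edgeR fit as lines; filled points have an adjusted p under 0.05. The 3 filled points, ACACB, ACAA2 and ECI2, all lie below 0, and the intervals of most other genes cross 0.

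The precision of the comparison can be read from the intervals. For 26 of the 31 genes the 95% interval of the fold change, unadjusted for the number of genes, lay wholly within a 2-fold change in either direction, and for 14 it lay within a 1.5-fold change. The 5 whose intervals reached beyond a 2-fold fall were SLC27A6, ACSL1, MLYCD, ACACB and ACAA2. No interval reached a 2-fold rise. The standard error of the log2 fold change had a median of 0.17 and ranged from 0.12 to 0.68.

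Among the uptake and activation genes, 0 of 5 were called, although 4 of 5 had a negative log2 fold change and the median was -0.51. FABP3, the cytosolic fatty acid carrier of muscle, was the most abundant of them per length. It was at 789, 737, 645 and 796 CPM in controls 1 to 4 and at 799, 515, 672 and 1170 CPM in banded 1 to 4. Banded 1 and 4 were above all controls, banded 1 by little, and banded 2 was below all of them (log2 fold change 0.09 ± 0.22 (SE), adjusted p = 0.853, edgeR quasi-likelihood). CD36, the main sarcolemmal fatty acid translocase, was at 417, 476, 425 and 399 CPM in the control group, and at 387, 326, 198 and 336 CPM after banding. All 4 banded values lay below all control values, with banded 3 the lowest, and edgeR did not call it (log2 fold change -0.46 ± 0.19, adjusted p = 0.168). ACSL1, the principal acyl-CoA synthetase of heart, was at 264, 262, 179 and 186 CPM in the control group, and at 196, 122, 96.5 and 122 CPM after banding. Banded 1 lay within the control range and the other 3 below it (log2 fold change -0.73 ± 0.22, adjusted p = 0.0738). Banded 1 is also the library with the high adipocyte marker sum, whose part in these values was not tested. Without it ACSL1 was called lower (log2 fold change -0.97, adjusted p = 0.0176) and CD36 was not (-0.58, adjusted p = 0.118). DESeq2 also called ACSL1 lower (adjusted p = 0.0192).

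The transport proteins SLC27A1 and SLC27A6, which couple uptake to activation, had lower levels per length than CD36 in controls. SLC27A1 was at 58.9 ± 10.2 CPM across controls, against 41.3 ± 8.66 CPM after banding (SD, n = 4 each), with banded 1 just inside the control range (log2 fold change -0.51 ± 0.18, adjusted p = 0.104). SLC27A6 varied widely, at 3.67 to 9.78 CPM in the control group, and at 6.95, 4.35, 0.958 and 0.73 CPM in banded 1 to 4. Its log2 fold change of -0.95 had a 95% interval of -2.50 to 0.59 and an adjusted p of 0.44. The log2 ratio of SLC27A6 to SLC27A1 within an animal was -3.28 ± 0.77 in controls and -4.18 ± 1.34 in banded animals, which the exact permutation test did not separate (two-sided p = 0.286, adjusted over 6 ratios 0.343).

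**Figure D2:**
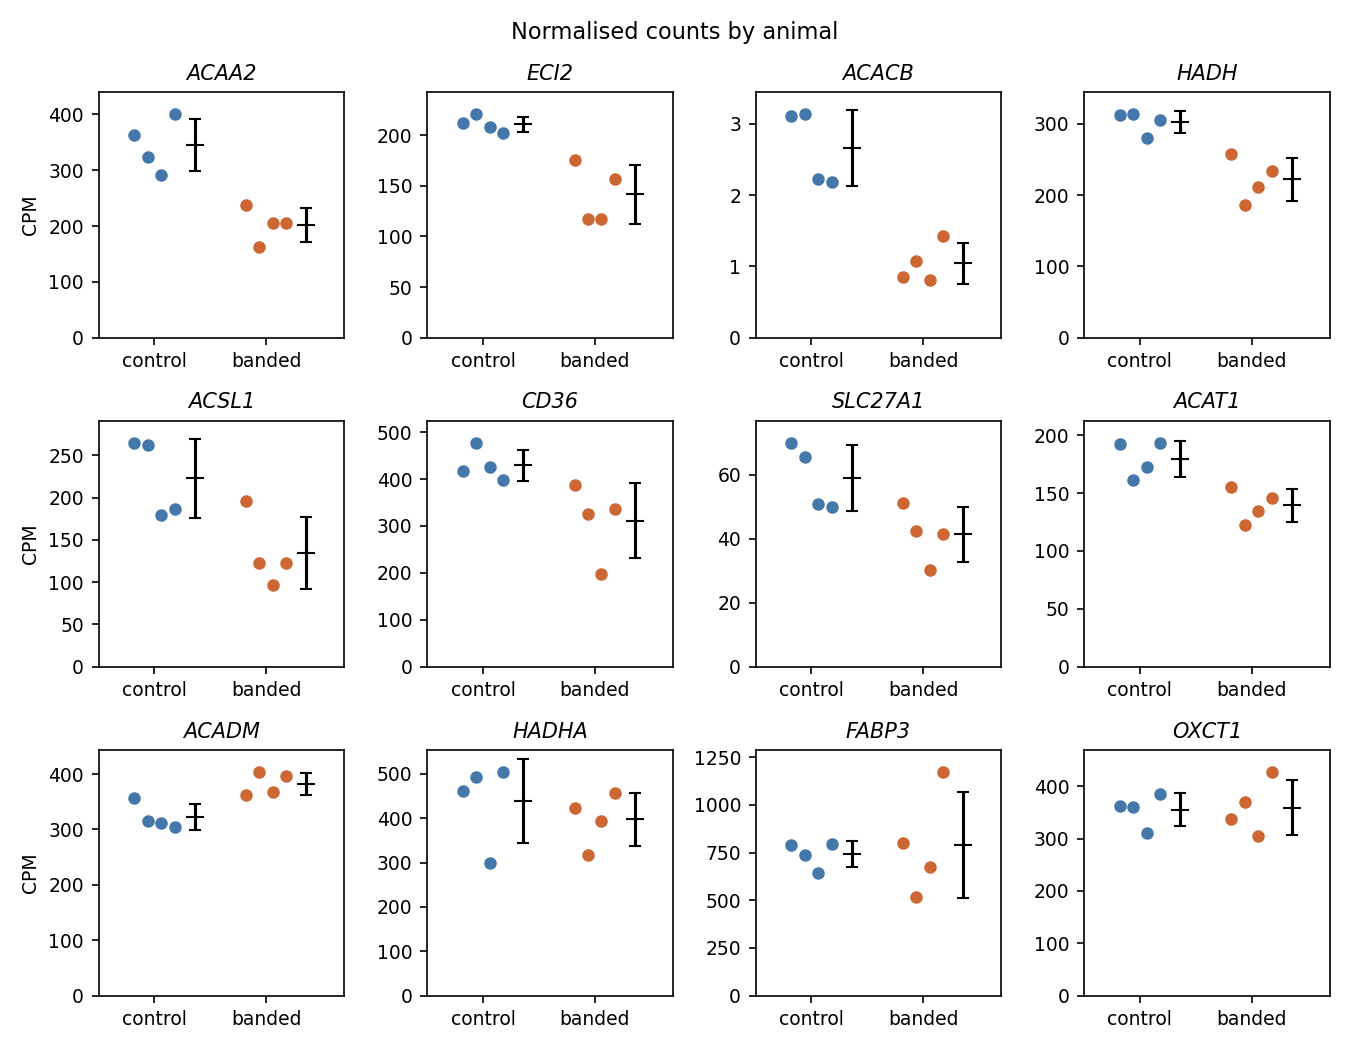
TMM-normalised CPM (y axis, from 0) of 12 genes in each of the 4 control and 4 banded animals (points, in the order of animals 1 to 4), with the group mean and SD beside them. ACAA2, ECI2, ACACB, HADH, CD36 and ACAT1 have all 4 banded points below all control points, ACADM has all 4 above them, and HADHA, FABP3, OXCT1, ACSL1 and SLC27A1 overlap.

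The carnitine shuttle had 0 of 4 genes called and a median log2 fold change of 0.10. CPT1B, the muscle isoform of the outer carnitine palmitoyltransferase, was at 266, 257, 199 and 211 CPM in the control group, and at 207, 184, 174 and 205 CPM after banding. Banded 2 and 3 lay below all controls, and banded 1 and 4 lay between the lowest controls (log2 fold change -0.28 ± 0.14, adjusted p = 0.26). CPT1A, the isoform of liver and of the fetal heart, was at 22.7 ± 6.62 and 25.8 ± 7.92 CPM (log2 fold change 0.19 ± 0.26, adjusted p = 0.704). The log2 ratio of CPT1A to CPT1B was -4.01 to -2.78 in controls and -3.71 to -2.57 in banded animals, a difference of 0.45 that was not separated from 0 (exact permutation p = 0.286, adjusted 0.343). Among 70 assignments of 4 against 4 the smallest possible p is 0.0286. After adjustment over the 6 ratios, 1 ratio alone at that p could not pass 0.05. CPT2, the inner palmitoyltransferase, was at 17.1 ± 3.07 and 20.4 ± 4.09 CPM (adjusted p = 0.437). CRAT, which buffers short-chain acyl groups as carnitine esters, was at 209 ± 30.1 and 210 ± 22.4 CPM, with a 95% interval of -0.32 to 0.32 for its log2 fold change. The CPT1B model also spans CHKB, a choline kinase gene with no model under that name, so some of its reads may belong to CHKB.

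Of the pair that sets malonyl-CoA, ACACB was lower and MLYCD was not called. The model matched to ACACB, the mitochondrial-surface acetyl-CoA carboxylase, was at 3.11, 3.13, 2.22 and 2.18 CPM in controls 1 to 4 and at 0.853, 1.08, 0.804 and 1.43 CPM in banded 1 to 4. Every banded value was below every control value, and the banded mean was 39.1% of the control mean (log2 fold change -1.35 ± 0.32, adjusted p = 0.0283). The counts behind it were low, 66 to 108 read pairs in controls and 26 to 41 in banded animals. The model (chromosome 14, 41697308 to 41713670, Sscrofa11.1, minus strand) has 737 exonic bases and lies inside the RefSeq span of ACACB, which is 118343 bases long. The value therefore describes a fragment of the gene. The call was lost without control 1 (adjusted p = 0.0882), control 2 (0.0935), control 3 (0.0607), banded 1 (0.0593) or banded 2 (0.0539). MLYCD, malonyl-CoA decarboxylase, was at 26.2, 19.7, 8.79 and 12.7 CPM in the control group, and at 19.6, 18.3, 6.96 and 11.8 CPM after banding. Its spread within each group was as wide as any difference between them (log2 fold change -0.25 ± 0.40, adjusted p = 0.76). The log2 ratio of ACACB to MLYCD was -3.05 to -1.96 in controls and -4.43 to -3.00 in banded animals (difference -1.08, exact permutation p = 0.0857, adjusted 0.286).

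The acyl-CoA dehydrogenases, which open each turn of the spiral on chains of different length, had 0 of 6 called, with log2 fold changes from -0.12 to 0.25. ACADVL, which acts on very long chains, was at 384, 360, 238 and 307 CPM in the control group, and at 344, 244, 262 and 339 CPM after banding. The groups overlapped throughout (log2 fold change -0.12 ± 0.18, adjusted p = 0.748). ACADL, the long-chain enzyme, was at 252 ± 33.1 and 238 ± 17.4 CPM (adjusted p = 0.764). ACADM, the medium-chain enzyme, was the only tested gene of the 31 with all banded values above all controls. It was at 356, 316, 312 and 305 CPM in the control group, and at 362, 403, 368 and 396 CPM after banding, and edgeR did not call it (log2 fold change 0.25 ± 0.12, adjusted p = 0.253). ACADS, the short-chain enzyme, was at 93.1 ± 6.80 and 95.8 ± 9.47 CPM (adjusted p = 0.874), from a model that also spans UNC119B, a gene with no model under that name. ACAD9, also an assembly factor of respiratory complex I, was at 14.6 ± 2.16 and 13.7 ± 1.75 CPM (adjusted p = 0.765). Its model spans KIAA1257, which has no model under that name. A model on the opposite strand shares 7.44% of the exonic length of ACAD9. ACAD10 was at 26.4 ± 1.36 and 25.7 ± 5.68 CPM (adjusted p = 0.907).

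Of the enzymes that complete the spiral, 1 of 6 was called. ACAA2, a mitochondrial ketoacyl-CoA thiolase that releases acetyl-CoA at the end of a turn, lies on chromosome 1 (99280800 to 99332381, Sscrofa11.1, minus strand). It was at 363, 324, 292 and 400 CPM in controls 1 to 4 and at 237, 163, 206 and 205 CPM in banded 1 to 4. The highest banded value was below the lowest control, and the banded mean was 58.8% of the control mean (log2 fold change -0.77 ± 0.16, adjusted p = 0.0157). Its call was kept by 16 of 18 alternative settings. It was lost without control 1 (adjusted p = 0.0561), and the test against a 1.5-fold change did not pass (0.638). HADH, the dehydrogenase for medium and short hydroxyacyl chains, was at 312, 314, 280 and 306 CPM in the control group, and at 258, 186, 211 and 234 CPM after banding. All banded values were below all controls, and the adjusted p was 0.074 (log2 fold change -0.45 ± 0.14). DESeq2 called HADH lower (adjusted p = 0.0154).

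HADHA and HADHB encode the subunits of the mitochondrial trifunctional protein, which carries out hydration, dehydrogenation and thiolysis of long chains. They are neighbours on chromosome 3 on opposite strands, and their models overlap by 222 bases at their start sites. HADHB was at 445, 557, 403 and 533 CPM in the control group, and at 498, 417, 489 and 746 CPM after banding, where only banded 4 left the control range (log2 fold change 0.15 ± 0.19, adjusted p = 0.691). HADHA was at 439 ± 94.9 and 398 ± 59.7 CPM (log2 fold change -0.14 ± 0.19, adjusted p = 0.694). The log2 ratio of HADHA to HADHB was -0.43 to 0.05 in controls and -0.71 to -0.24 in banded animals, a difference of -0.25 (exact permutation p = 0.143, adjusted 0.286). ECHS1, the short-chain enoyl-CoA hydratase, was at 128 ± 15.5 and 149 ± 40.7 CPM (adjusted p = 0.524), with banded 4 the highest at 206 CPM. HSD17B10, a dehydrogenase of branched and short chains, was at 56.1 ± 7.42 and 53.0 ± 13.6 CPM (adjusted p = 0.839), and 32.4% of its exonic length is shared with the SMC1A model on the same strand.

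The enzymes that handle double bonds had 1 of 2 tested genes called. ECI2, which shifts the double bond of unsaturated acyl-CoA so that the spiral can proceed, lies on chromosome 7 (2421054 to 2446276, minus strand). It was at 212, 221, 208 and 202 CPM in the control group, and at 175, 117, 117 and 157 CPM after banding. Controls were tightly grouped, with a coefficient of variation of 3.68%, and all banded values lay below them (log2 fold change -0.57 ± 0.15, adjusted p = 0.0477). This call was close to the threshold. It was lost without control 1 (adjusted p = 0.12), control 2 (0.13), control 3 (0.115), control 4 (0.0702), banded 2 (0.0933), banded 3 (0.0842) or banded 4 (0.0508), and without robust estimation (0.0515). DECR1, the dienoyl-CoA reductase of mitochondria, was at 128, 115, 129 and 162 CPM in the control group, and at 114, 118, 95.4 and 162 CPM after banding (adjusted p = 0.704). Banded 1 and 3 lay below all controls, banded 1 by little, and banded 2 and 4 lay within the control range. ECI1, the other isomerase of the list, was among the genes with no matched model. Its RefSeq position on chromosome 3 is covered by the model of RNPS1, a splicing gene, so no value was taken for it.

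Electrons from the dehydrogenases pass through ETFA and ETFB to ETFDH, which hands them to ubiquinone. ETFA was at 180, 169, 173 and 213 CPM in the control group, and at 160, 126, 133 and 168 CPM after banding. The banded values were all below the controls, with the nearest pair at 168 and 169 CPM, and the difference was not called (log2 fold change -0.33 ± 0.14, adjusted p = 0.187). ETFDH had the opposite sign, 199 ± 23.4 against 245 ± 39.7 CPM, with overlap (log2 fold change 0.30 ± 0.15, adjusted p = 0.263). ETFB could not be measured. Its model had 1 to 17 read pairs in controls and 0 to 5 in banded animals, and 83.2% of its exonic length is shared with the model of CLDND2 on the same strand. The planned ratio of ETFA to ETFB therefore describes those few reads (exact permutation p = 0.543).

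ACOT13, a mitochondrial acyl-CoA thioesterase, was at 240, 139, 217 and 248 CPM in the control group, and at 221, 218, 214 and 306 CPM after banding (log2 fold change 0.18 ± 0.20, adjusted p = 0.617). Control 2 was the lowest and banded 4 the highest value. The ACOT13 model also spans C7H6orf62, which has no model under that name. A model on the opposite strand shares 21.8% of the exonic length of ACOT13. UCP3, a mitochondrial carrier of muscle whose expression follows fatty acid supply, was near the detection limit. It had 17, 11, 6 and 6 read pairs in controls 1 to 4 and 5, 0, 0 and 1 in banded 1 to 4, or 40 against 6 in total. It did not enter the test, and without a filter on low counts its adjusted p was 0.279. In banded 2 and 3, which had none, counting error allows a level of up to 0.0919 and 0.0878 CPM (3 read pairs of the total, before TMM scaling).

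Of the 3 ketone oxidation enzymes 0 were called, with log2 fold changes from -0.36 to 0.27. ACAT1, the thiolase that splits acetoacetyl-CoA and also acts on isoleucine breakdown products, was at 192, 161, 173 and 193 CPM in the control group, and at 156, 122, 135 and 146 CPM after banding. All banded values were below all controls (log2 fold change -0.36 ± 0.13, adjusted p = 0.115), and with library size alone the difference was called (adjusted p = 0.0397). OXCT1, the transferase that activates acetoacetate and commits ketone bodies to oxidation, was at 355 ± 31.5 and 359 ± 52.2 CPM (log2 fold change 0.02, 95% interval -0.30 to 0.34, adjusted p = 0.955). BDH1, which converts hydroxybutyrate to acetoacetate, was at 46.6 ± 4.22 and 56.0 ± 11.3 CPM (log2 fold change 0.27 ± 0.15, adjusted p = 0.321). The interval of BDH1, -0.07 to 0.60, reached above a 1.5-fold rise. The log2 ratio of OXCT1 to BDH1 was 2.93 ± 0.20 in controls and 2.69 ± 0.18 in banded animals (exact permutation p = 0.143, adjusted 0.286).

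Levels can be compared between genes only per length, as CPM per kilobase of gene model. In controls FABP3 stood alone at 647 ± 60.7 CPM per kilobase. HADHB (133 ± 20.0), HADHA (133 ± 28.8), ACADVL (123 ± 24.8), ACADM (116 ± 8.34), ACAT1 (107 ± 9.25) and ACADL (97.9 ± 12.8) followed, each overlapping the next in its range over animals. ACAA2 was at 67.0 ± 9.13 and CD36 at 61.2 ± 4.74 CPM per kilobase. CPT1B was at 43.0 ± 6.14 and CPT1A at 3.83 ± 1.12, CPT2 at 5.76 ± 1.03 and CRAT at 36.5 ± 5.24. OXCT1 was at 34.0 ± 3.02 and BDH1 at 22.6 ± 2.05. The lowest of the tested genes were ACACB (3.61 ± 0.72), ACAD9 (2.10 ± 0.31) and SLC27A6 (1.52 ± 0.62). The ACACB value is that of a 737-base fragment of the gene. The models of CPT1B and ACADS also span a neighbouring gene, so their lengths and reads may include it. Those of ACAD9 and ACOT13 span a neighbouring gene too, and share exonic length with a model on the opposite strand. Whether their reads include the neighbour was not tested. HSD17B10 shares 32.4% of its exonic length with SMC1A on the same strand, and ECHS1 11.6% with FUOM, which may alter their counts. The places of these genes in the order are therefore uncertain. Of the 30 pairs of neighbours in this order, 23 overlapped in range.

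**Figure D3:**
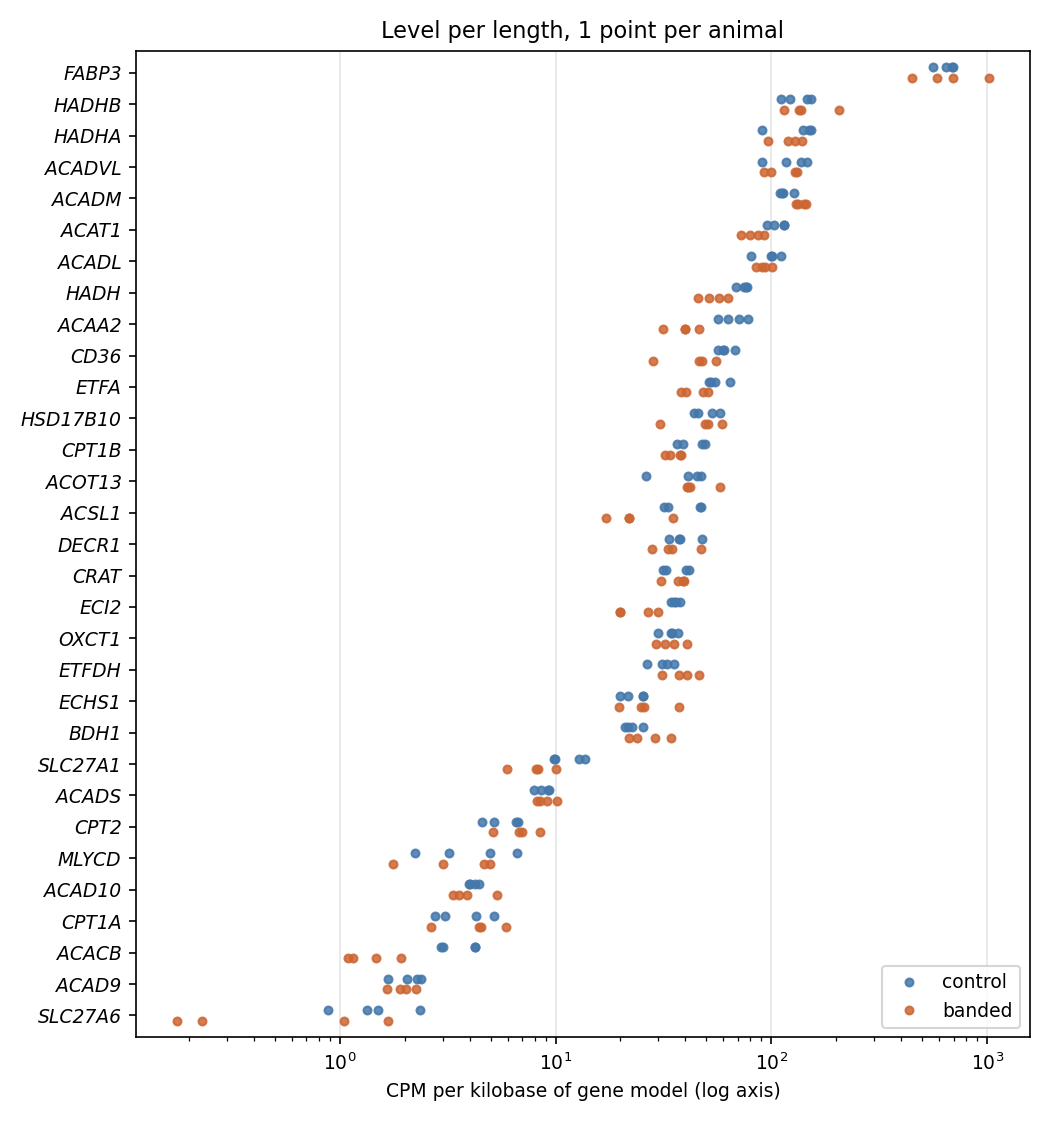
CPM per kilobase of gene model (x axis, log scale) of the 31 tested genes in each control and banded animal (points), ordered by the control mean. FABP3 lies far to the right at 647 CPM per kilobase in controls, and ACAA2, ECI2 and ACACB show banded points to the left of all control points.

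The animals differed in how many of the genes were low. Of the 31 tested genes, 15 were below all controls in banded 2, 15 in banded 3, 13 in banded 4 and 8 in banded 1. Above all controls were 2 genes in banded 2, 2 in banded 3, 8 in banded 1 and 11 in banded 4. The same counts were not made over all tested genes, so whether these genes stand out in any animal was not tested. The median deviation from the control mean on the log2 scale was -0.23 in banded 2, -0.22 in banded 3, -0.06 in banded 4 and 0.05 in banded 1. Among the controls, control 3 was below the control mean for 29 of the 31 genes, with a median deviation of -0.20, close to that of banded 2 and 3. Controls 1, 2 and 4 had medians of 0.10, 0.03 and 0.08. Without control 3 the fold changes of the called genes were as large or larger, at -0.84 for ACAA2, -1.43 for ACACB and -0.58 for ECI2, and the median of the 31 was -0.17 with 22 below 0. With 1 animal fewer, only ACAA2 of these 3 was still called.

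**Figure D4:**
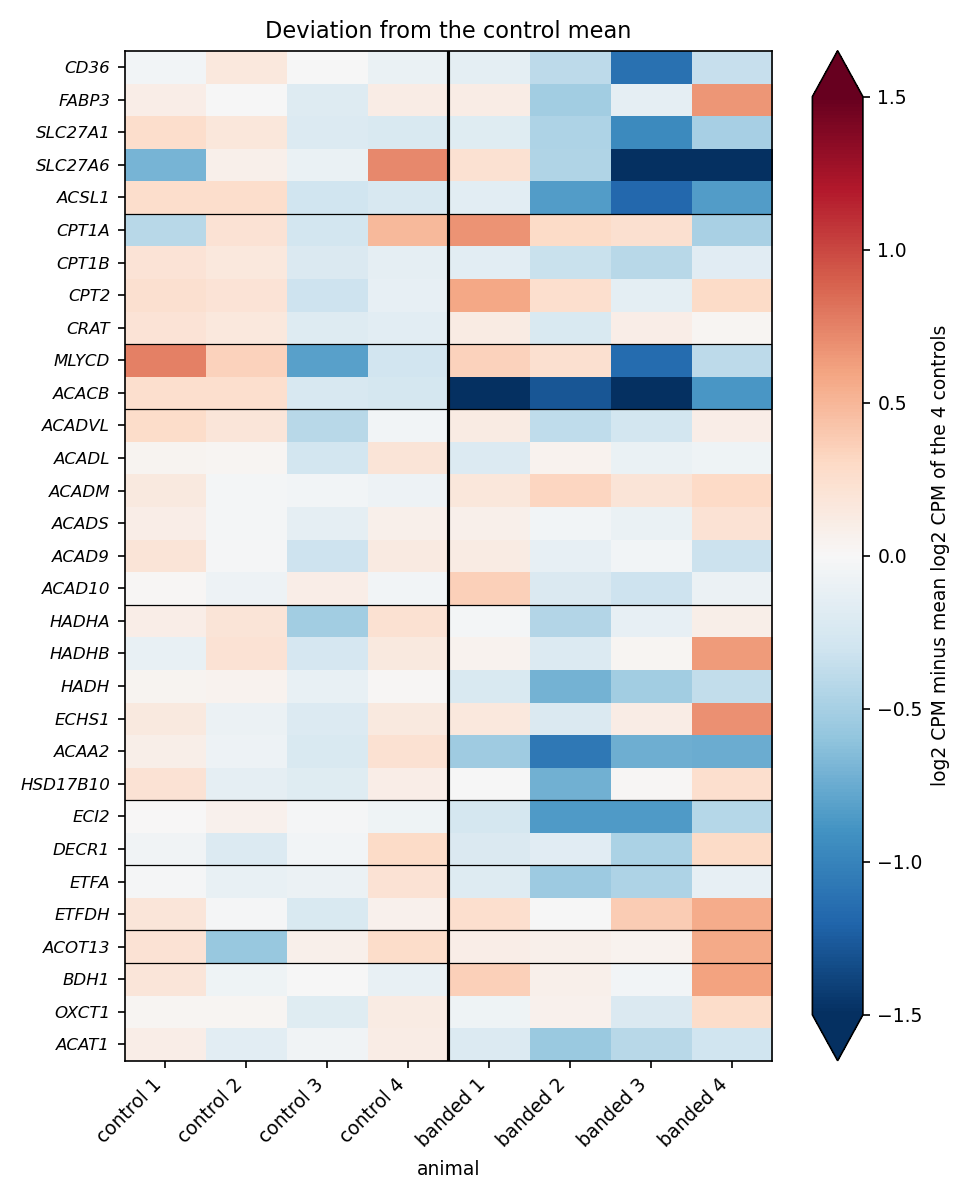
Deviation of log2 CPM from the mean log2 CPM of the 4 controls (colour, saturated at -1.5 and 1.5) for the 31 tested genes (rows, grouped by pathway step) in each animal (columns). Banded 2 and banded 3 are below 0 (blue) for 23 of 31 genes each, control 3 is below 0, often only slightly, for 29 of 31, and banded 4 holds both blue and red cells.

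The values of the authors' deposited table matched a comparison of 7 libraries, without banded 3. Over the 31 genes its log2 fold changes, turned to banded over control, lay within 0.0064 of the edgeR fit without banded 3, and its mean normalised counts within 0.0956% of those of the same 7 libraries. With all 8 libraries the gaps in the authors' deposited table reached 0.30 on the log2 scale and 10.6% of the mean count, and 2 of the 31 genes differed in sign. The sources used here state no reason. Of the 33 matched genes, 5 in the authors' deposited table had an adjusted p under 0.05 and lower values in banded pigs, and 0 had higher ones, against 5.55% lower and 5.01% higher (10.6% in all) over its genes. The 5 genes were ACAA2 (log2 fold change -0.77, adjusted p = 0.000242 in the authors' deposited table), ACACB (-1.25, 0.00772), ECI2 (-0.49, 0.0227), HADH (-0.42, 0.0396) and ACSL1 (-0.60, 0.049). The edgeR fit without banded 3 called 2 of them, ACAA2 (adjusted p = 0.023) and ACACB (0.0479). DESeq2 run here on all 8 libraries, a different set of animals, also called those 5 lower, against 6.11% lower and 6.43% higher over all genes it tested.

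Further genes of fatty acid and ketone metabolism were read from 3 lists. Of other genes of mitochondrial fatty acid uptake, activation and oxidation, 0 of 25 tested were called (33 listed), with a median log2 fold change of -0.0032 and 6 at an unadjusted p under 0.05 in edgeR (against 23.8% of all tested genes). The groups overlapped for all 25, whereas they did not for 15.9% of all tested genes. DESeq2 called 1 of them higher (DBI, an acyl-CoA binding protein) and 1 lower (GPIHBP1, which anchors LPL on capillaries), and voom called DBI higher and ACSL3, an acyl-CoA synthetase, lower. Genes that only DESeq2 or voom called are named here and below after their values were seen. LPL, the lipoprotein lipase that frees fatty acids from circulating triglyceride, was the most abundant at 360 ± 61.6 and 407 ± 130 CPM (adjusted p = 0.68).

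Peroxisomes shorten very long and branched fatty acids by a spiral of their own, and 3 of 21 tested peroxisomal genes were called lower and 0 higher (14.3% lower, against 3.50% of all tested genes). PECR, a peroxisomal enoyl-CoA reductase, was at 35.1, 35.9, 39.4 and 42.5 CPM in the control group, and at 29.1, 19.9, 24.8 and 20.9 CPM after banding (log2 fold change -0.69 ± 0.14, adjusted p = 0.0177). HSD17B4, the bifunctional hydratase and dehydrogenase of that spiral, was at 80.1, 84.9, 72.7 and 78.2 CPM in the control group, and at 55.1, 53.0, 62.7 and 56.8 CPM after banding (log2 fold change -0.47 ± 0.11, adjusted p = 0.0295). ACOX2, an oxidase of branched chains and bile acid intermediates, was at 57.2 ± 3.05 and 40.9 ± 4.41 CPM (log2 fold change -0.49 ± 0.12, adjusted p = 0.0317). The groups did not overlap for any of the 3, the only such genes of the 21 (14.3%, against 15.9% of all tested genes). At an unadjusted p under 0.05 in edgeR, 5 of the 21 were lower and 0 higher (23.8%, against 23.8% of all tested genes in either direction). PECR lost its call without control 3 (adjusted p = 0.0583). HSD17B4 lost it without any 1 control (0.0522 to 0.102) or without banded 1 (0.0672) or banded 2 (0.0647), and ACOX2 without any 1 control (0.0576 to 0.101) or without banded 2 (0.0707) or banded 3 (0.0508). PHYH, which starts the breakdown of phytanic acid, was the most abundant at 323 ± 84.2 and 291 ± 52.9 CPM (adjusted p = 0.704). The median log2 fold change of the 21 was -0.14, with 16 below 0 (76.2%, against 48.4% of all tested genes). DESeq2 called ACOT4, a peroxisomal thioesterase, lower as well (log2 fold change -0.72 and adjusted p = 0.0621 in edgeR).

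Of genes for ketone synthesis, ketone transport and acetyl-CoA supply, 1 of 13 tested was called higher and 1 lower (7.69% each way, against 3.47% higher and 3.50% lower over all tested genes). DESeq2 also called SLC16A3, a lactate exporter, higher (log2 fold change 1.71 and adjusted p = 0.125 in edgeR). The groups did not overlap for 3 of the 13 (1 lower and 2 higher, 23.1%, against 15.9% of all tested genes). ACSS3, a mitochondrial synthetase that activates short acyl chains, was at 50.3, 55.7, 46.4 and 29.7 CPM in the control group, and at 98.7, 68.7, 91.0 and 124 CPM after banding. Every banded value was above every control (log2 fold change 1.07 ± 0.22, adjusted p = 0.0157), and the call was lost when control 3 was left out (0.0527). HMGCS1, the cytosolic synthase of the mevalonate pathway, was at 30.0 ± 2.48 and 21.6 ± 2.08 CPM (log2 fold change -0.47 ± 0.12, adjusted p = 0.0439), a call lost without any 1 control (0.0776 to 0.113) or without banded 1 (0.087) or banded 2 (0.0964), and without a filter on low counts (0.0633). BSG, the chaperone of monocarboxylate transporters, was the most abundant at 460 ± 24.5 and 542 ± 102 CPM (adjusted p = 0.394).

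**Figure D5:**
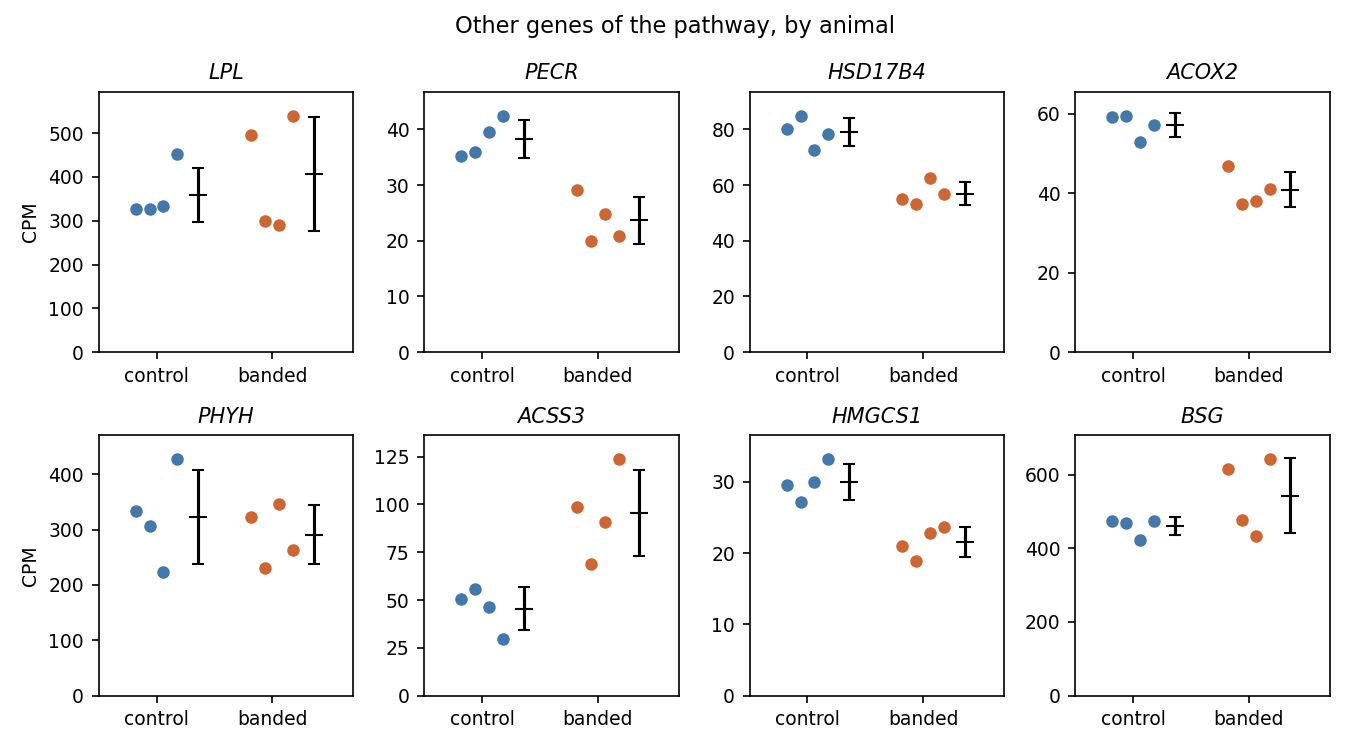
TMM-normalised CPM (y axis, from 0) of 8 further genes of fatty acid and ketone metabolism in each of the 4 control and 4 banded animals (points, in the order of animals 1 to 4), with the group mean and SD beside them. PECR, HSD17B4, ACOX2 and HMGCS1 have all banded points below all control points, ACSS3 has them above, and LPL, PHYH and BSG overlap.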

How the data were processed

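Total RNA of the right ventricular free wall was sequenced in 4 control and 4 banded pigs. The deposited raw counts are read pairs per gene model, made with featureCounts 1.6.2 on Sscrofa11.1 and Ensembl 106 with a minimum mapping quality of 10 and strand setting 2, per the file headers. The command in the header named 24 libraries, of which the 8 of the right ventricle were used. Trimmomatic, HISAT2, Subread and DESeq2 are named without versions in the submitters' processing notes. A table deposited by the authors gives a mean normalised count (signal), log2 fold change, test score, p-value, adjusted p-value and percent identity with human genes; its log2 values are control over banded and were turned around here. They match the 7 libraries without banded 3, whereas the values computed here use all 8.

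Counts were tested with edgeR 4.0.16 (TMM, filterByExpr with a minimum count of 10, robust quasi-likelihood F test, Benjamini-Hochberg over 13697 genes, 0.05) in R 4.3.3. No covariate was used. The edgeR p-values weigh each group difference against the spread between these animals, moderated across all tested genes. Standard errors were derived from the fold change and its F statistic. The 6 ratios within animals used log2 CPM with a prior count of 2 and two-sided exact permutation tests. The test was checked on simulated counts, where most changes of 1.5-fold were not called. Alternatives were DESeq2 1.42.0, voom with quality weights (limma 3.58.1), other scalings and filters, a fit with robust estimation off, a null of a 1.5-fold change, removal of mitochondrial-genome genes, and each library left out.

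The members, pathway lists and marker lists were chosen with earlier results of these data known. Values per animal are given for called genes, for the most abundant gene of each step, and for others whose groups did not overlap or that an alternative called, the last chosen after their values were seen. From the pathway lists the called and the most abundant genes are named. Overlap of gene models was read from the exon coordinates in the count table, and RefSeq positions from a table of the same assembly. Depth of 31033679 to 34183338 pairs makes 3 pairs equal to 0.0878 to 0.0967 CPM before TMM scaling. Such limits cover counting error only.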

Additional observations from a re-analysis of the deposited data

Results flagged for a closer look

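ACOT13, the mitochondrial thioesterase, stood at 306 CPM in banded 4 against 214 to 221 CPM in the other 3 banded animals. The gap to the nearest animal was 0.921 of the whole range of the group, above the 95% critical value of Dixon's test for 4 samples. It was the 1 such value among 66 groups tested over the 33 genes, where chance gives about 1 in 20. The model counted for ACOT13 also spans C7H6orf62, which has no model under that name, and shares exonic length with a model on the opposite strand.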

How the results depend on the processing

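No paired analysis was possible because the labels give no number, litter or batch that ties a control to a banded animal. Genes called higher numbered 475, and 877 with DESeq2, 303 with library size alone, 79 against a 1.5-fold change and 201 to 499 with 1 library left out. Genes called lower numbered 479, and 833 with DESeq2, 69 against a 1.5-fold change and 198 to 476 with 1 library left out. Of fatty acid and ketone oxidation genes 3 were called lower, and 5 with DESeq2, 5 with library size alone, 0 against a 1.5-fold change and 0 to 3 with 1 library left out. In the pathway lists 1 gene was called higher, and 3 with DESeq2, 2 with voom, 2 with no filter, 0 against a 1.5-fold change and 0 to 2 with 1 library left out; 4 were called lower, and 0 against a 1.5-fold change and 0 to 7 with 1 library left out. Fits with 1 library left out use fewer samples, and the 1.5-fold test uses a stricter null. The cause of these changes was not tested.

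Signs turned only for genes that were not called. With library size alone the log2 fold change became -0.028 for FABP3, -0.11 for CRAT, -0.059 for ACADS and -0.076 for OXCT1. CRAT was at -0.014 with voom, -0.0066 with upper-quartile scaling and -0.0030 with at least 50 counts, and ACAD10 at 0.018 with voom. With 1 library left out the log2 fold change ranged from -0.16 to 0.25 for FABP3, -0.063 to 0.074 for CRAT, -0.46 to 0.046 for MLYCD, -0.020 to 0.086 for ACADS, -0.20 to 0.040 for ACAD10, -0.048 to 0.26 for HADHB, -0.20 to 0.082 for HSD17B10, -0.072 to 0.091 for OXCT1 and -0.29 to 0.016 for PHYH. The log2 ratio of ETFA to ETFB differed by -0.10 (without control 2) to 0.78 (without control 3).

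Depth limits ACACB, SLC27A6, UCP3 and ETFB, whose counts were the lowest. With 4 animals a group the exact tests cannot go below 0.0286 before adjustment, either with all 8 animals or with 1 left out.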
